A study of Homo sapiens with 2 samples.

Results

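Places where many UTX peaks lay close together were examined in untreated Jurkat cells. Jurkat is an established cell line from a human leukaemia of immature T cells, T cell acute lymphoblastic leukaemia (T-ALL). The peaks come from chromatin immunoprecipitation followed by sequencing (ChIP-seq). Neighbouring UTX peaks of a chromosome were joined when no more than 10 kb separated the end of one from the start of the next, and joined groups of 5 or more peaks were kept. The groups were thus chosen by the measured positions of the UTX peaks, so their number, size and spacing are given as a description. The rule kept 859 of the 17396 UTX peaks (4.94%), which fell into 140 of 13105 joined groups (1.07%). The study had 1 UTX library, made with a mixture of 2 antibodies against UTX, and 1 mock library made with an isotype IgG from the same line. The mock library was not analysed here. The peak list was set beside 2678 TAL1 peaks from data that an earlier study had produced. Both lists give positions only, so the depth is unknown and peak width is the only measure of peak size. With 1 library there is no replicate spread. No difference below was tested over samples. Each interval printed with a share is a 95% binomial one by the exact Clopper-Pearson method, which covers the counting of peaks only. Peaks of a group share a locus and are not independent, so these intervals are too narrow as a measure of the error.

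UTX, encoded by KDM6A, erases the methylation of histone H3 at lysine 27 that marks silenced chromatin, and works within the KMT2C and KMT2D complexes that mark enhancers. TAL1, a transcription factor of the basic helix-loop-helix family, is switched on aberrantly in a subset of T-ALL and binds enhancers together with GATA, RUNX and ETS factors. Runs of closely spaced binding sites are known from promoters of highly transcribed genes, from gene clusters and from long enhancer domains around genes that define a cell type. A peak caller may also return 1 wide domain as several neighbouring peaks. Genes are named below as background, from the known gene map of hg19. An annotation of that build was not used, and distances to genes were not computed. All positions are hg19, counted from 1.

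Most groups were small and mostly unoccupied between their peaks. Of the 140 groups, 80 held 5 peaks, 35 held 6, 12 held 7 and 13 held 8 or more. Their median length was 17.6 kb (quartiles 13.4 and 24.8 kb), and 2 groups were longer than 50 kb. UTX peaks covered a median of 15.3% of a group (quartiles 10.2 and 22.7%). In 35 groups the covered share was under 10%, in 59 it was 10 to 20%, in 35 it was 20 to 40% and in 11 it was 40% or more. The 2 groups longer than 50 kb were both in a block at the CDK6 locus on chromosome 7, which held 3 of the 140 groups and 70 of the 859 peaks. Without this block the 137 remaining groups held 789 peaks. Their median length was 17.5 kb and their median covered share 14.96%, close to the values with it. The totals moved more: UTX peaks covered 610 kb within all groups, or 20.97% of the 2909 kb spanned, and 427 kb, or 16.2% of 2635 kb, without the block. The 859 grouped peaks held 9.01% of all bases under UTX peaks, against 6.30% for the 789 outside the block.

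**Figure D1:**
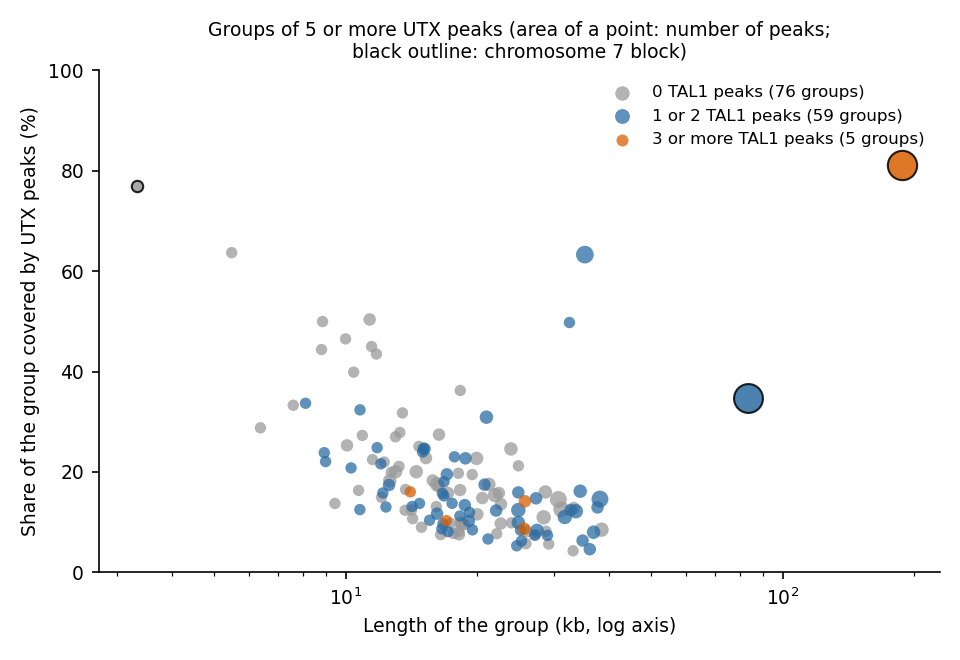
Each point is 1 of the 140 groups, with its length in kb on a log axis and the share of it covered by UTX peaks in percent; the area of a point stands for its number of peaks, the colour for the TAL1 peaks it holds, and a black outline for the chromosome 7 block. Most groups lie between 10 and 40 kb at under 40% covered, and the block's groups of 33 and 32 peaks stand apart at 187 and 83.2 kb.

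The thresholds of the rule fell within a continuous range. Just outside it were 177 groups of 4 peaks (708 peaks), with a median covered share of 15.5% against 15.8% in the 80 groups of 5 just inside it. The widest gap that was joined measured 9965 bases, and the nearest peak that was left out lay 10.03 kb from its group. Of the 140 groups, 63 had another UTX peak no more than 20 kb away, and 40 had another group of 5 or more within 1 Mb.

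Grouped peaks were wider than the rest of the list. Their median width was 403 bases (quartiles 274.5 and 637.5), against 317 (quartiles 228 and 449) in groups of 1 to 4 and 304 for single peaks, with quartiles that overlapped. Without the chromosome 7 block the median was 392 bases. Peaks over 1 kb made up 92 of the 859 (10.7%), where the whole list had 2.15%, and 66 of the 789 outside the block (8.37%). The 859 peaks thus included 24.6% of all UTX peaks over 1 kb. Most groups had no such peak: the widest peak exceeded 1 kb in 52 of the 140. Across the 140 groups the widest peak measured a median of 811 bases and accounted for a median of 32.2% of the group's covered bases (range 10.6 to 66.3%), so coverage was usually spread over several peaks. The widest peak was the first or the last of its group in 53 of 140. First and last peaks made up 280 of the 859 grouped peaks, and a larger share in the smallest groups. Whether the widest peak lay there more often than position alone gives was not tested.

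Neighbouring peaks within a group had a median gap of 2238 bases between them (quartiles 612.5 and 5195). Some lay very close: 158 of the 719 gaps (21.98%) measured 500 bases or less, against 18.8% of the 3572 gaps in groups of 2 to 4. In the block this share was 44.8% (30 of 67), and outside it 19.6% (128 of 652). The smallest gap in the groups, as in the whole list, was 51 bases. When peaks at most 500 bases apart were counted as 1, a setting chosen after the data had been seen, 84 groups of 5 or more remained, with 503 joined sites. Group size therefore depended on whether such neighbours were taken as separate sites.

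The CDK6 block ran from 92156988 to 92465589 on chromosome 7. CDK6, the kinase that partners D-type cyclins to drive cells into S phase, occupies most of this segment and starts near its right-hand end. The first group, from 92156988 to 92344086, reached from the neighbouring genes RBM48 and FAM133B into the 3′ part of CDK6. It held 33 peaks over 187 kb, of which 81.2% was covered. Its peaks ranged from 199 to 42536 bases with a median of 1026, and 17 exceeded 1 kb, 9 of them 5 kb. Gaps in it were short, with a median of 262.5 bases. Up to 92315931 it was thus close to continuous. From 92320676 on it was sparse, with peaks of 199 to 1026 bases and gaps of up to 5476 bases.

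The second group of the block, from 92362388 to 92445579 inside CDK6, was more open. It held 32 peaks over 83.2 kb with 34.8% covered, and its peaks measured 215 to 3072 bases with a median of 695.5. None exceeded 5 kb, and 8 exceeded 1 kb. Its median gap was 1438 bases. The third group, from 92462264 to 92465589 at the start of CDK6, held 5 peaks of 346, 1321, 234, 326 and 334 bases within 3.33 kb, the shortest of the 140 groups. It was 77.0% covered and its largest gap was 443 bases. Gaps of 18.3 and 16.7 kb separated the 3 groups.

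**Figure D2:**
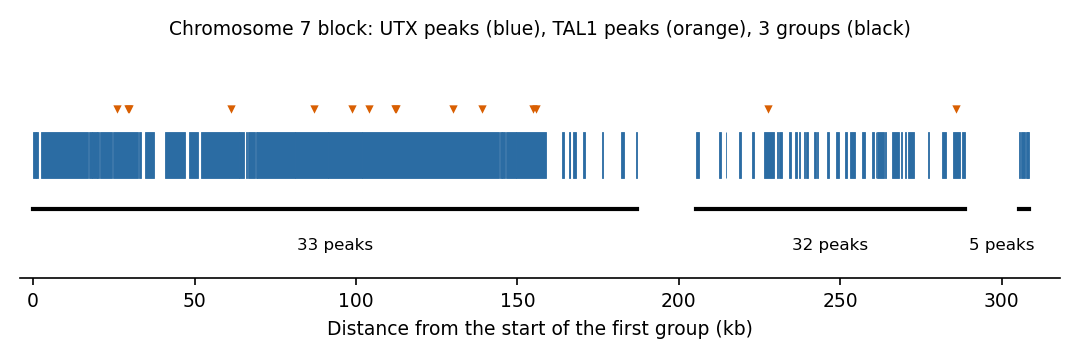
UTX peaks (blue bars), TAL1 peaks (orange triangles) and the 3 groups (black lines) of the chromosome 7 block, by distance in kb from the start of the first group. The first group is covered almost without a break over most of its length and holds 13 TAL1 peaks, the second is a run of separate peaks with 2, and the third has none.

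TAL1 peaks in the block lay in its wide UTX peaks. In the first group peaks over 5 kb also made up most of the covered bases, and the peak of 42536 bases alone made up 28.0%. Whether TAL1 lay in wide peaks more often than their share of bases would give was not tested. In the first group 13 TAL1 peaks lay in 6 of the 33 UTX peaks: 5 in the peak of 42536 bases, 3 in one of 7752, 2 in one of 9292, and 1 each in peaks of 11781, 10323 and 10000 bases. These TAL1 peaks measured 89 to 504 bases and lay 25.8 to 156 kb from the start of the group. Wide peaks without TAL1 were also present there, among them peaks of 14533, 11761 and 6076 bases. The second group held 2 TAL1 peaks, in UTX peaks of 3072 and 2143 bases, which were its widest and second widest. The third group held none, and the nearest TAL1 peak lay 19.3 kb away.

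Outside the block, 4 groups held 10 or more UTX peaks. The group of 12 at 128373028 to 128408284 on chromosome 2, at the MYO7B, LIMS2 and GPR17 genes, was 63.3% covered over 35.3 kb. Its peaks measured 932, 386, 290, 366, 259, 646, 3941, 1911, 556, 11426, 1079 and 519 bases in genomic order. The peak of 11426 bases held 51.2% of the covered bases and 1 TAL1 peak, and the first peak held another. This was the group outside the block with the most bases under UTX peaks, 22.3 kb.

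The other groups of 10 or more were built of ordinary peaks. The group of 11 at 74076775 to 74114951 on chromosome 10, at DNAJB12, which encodes a chaperone of the endoplasmic reticulum, measured 38.2 kb with 14.6% covered. Its peaks ranged from 160 to 936 bases, and 1 of them, of 477 bases, held the only TAL1 peak. The group of 11 at 27775528 to 27806198 on chromosome 6 lay in the replication-dependent histone gene cluster. Its peaks measured 237, 230, 528, 397, 580, 230, 384, 445, 719, 416 and 289 bases. None held TAL1, and the nearest TAL1 peak lay 588 kb away. The group of 10 at 12886460 to 12917602 on chromosome 19 spanned JUNB, an immediate early transcription factor of the AP-1 family, and PRDX2, which encodes a peroxiredoxin. Its peaks measured 181 to 1006 bases and covered 12.6% of 31.1 kb. It too held no TAL1 peak, with the nearest one 107 kb away.

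Of the 11 groups with 40% or more covered, 9 lay outside the block. Among these 9, 7 were short, at 5.48 to 11.8 kb, and 2 were long. The long ones were the MYO7B, LIMS2 and GPR17 group at 35.3 kb and one at MIR142 at 32.5 kb. The highest share outside the block was 63.7% at 96807638 to 96813118 on chromosome 2. This position is DUSP2, which encodes a phosphatase of MAP kinases that is induced in activated T cells. The 5 peaks there measured 1289, 399, 776, 709 and 317 bases within 5.48 kb. The group at 49055608 to 49066948 on chromosome 3 was 50.4% covered, with peaks of 1458, 373, 1297, 1349, 397 and 838 bases. It lies at the closely packed genes DALRD3, NDUFAF3 and IMPDH2, the last of which encodes an enzyme of guanine nucleotide synthesis. Others of the 11 were chosen here after their values were seen. They were at PTMA (232571557 to 232580403 on chromosome 2, 49.96% covered), at PFN1, which encodes the actin-binding protein profilin (4844141 to 4854131 on chromosome 17, 46.5%), at CFL1, which encodes cofilin (65619151 to 65627950 on chromosome 11, 44.4%), and at the noncoding RNA gene NEAT1 (65186075 to 65197826 on chromosome 11, 43.5%). None of these 6 groups held a TAL1 peak. Of the 11 groups, 8 held none and 3 held some, where 76 of all 140 held none.

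The longest groups outside the block were sparse. The group of 8 peaks at 56255248 to 56293738 on chromosome 20, at PMEPA1, a target of TGF-beta signalling, measured 38.5 kb with 8.52% covered. Its peaks measured 162 to 704 bases, and it held no TAL1 peak. The group of 6 at 133450046 to 133487737 on chromosome 5 spanned TCF7, a transcription factor of early T cell development, over 37.7 kb with 12.9% covered. Its peaks measured 157, 369, 560, 249, 400 and 3145 bases, so 64.4% of the covered bases lay in the last one. The only TAL1 peak was in the peak of 369 bases.

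**Figure D3:**
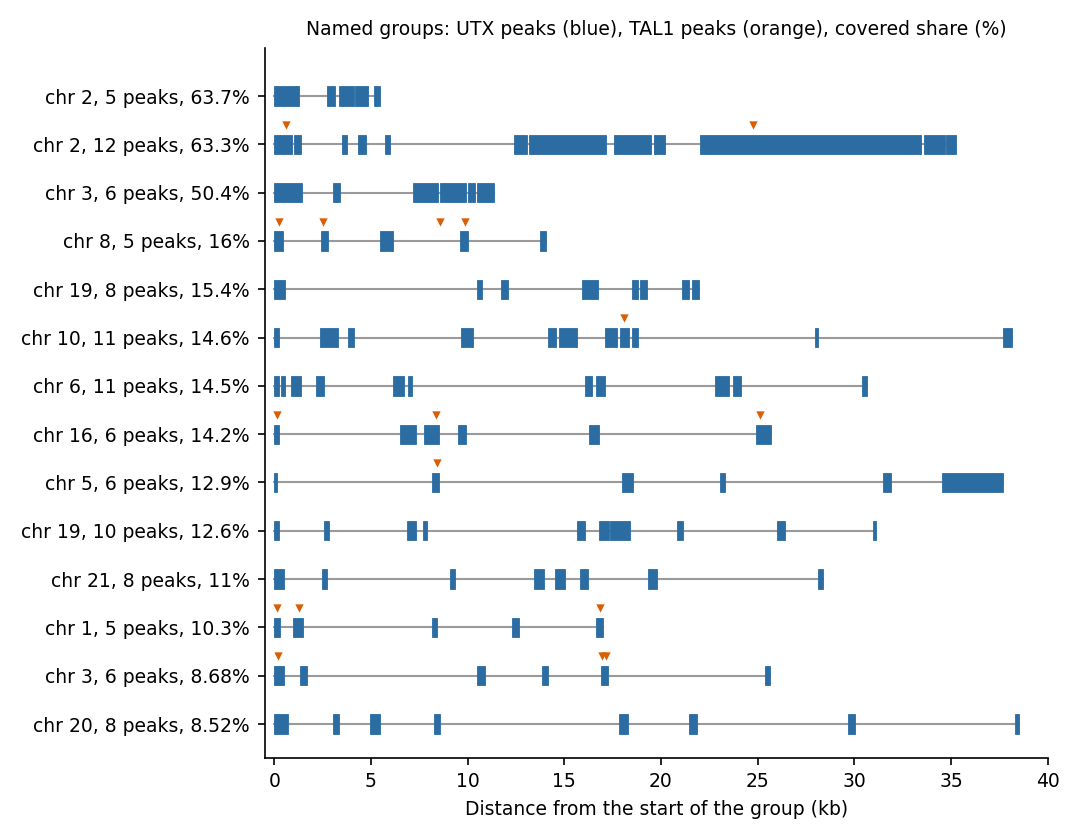
UTX peaks (blue bars) and TAL1 peaks (orange triangles) of the 14 named groups outside the chromosome 7 block, by distance in kb from the start of each group, ordered by the share covered by UTX peaks (in percent in the label). The covered share is 50.4 to 63.7% in 3 groups and at most 16.04% in the others, among which the TCF7 group has 1 wide peak of 3145 bases at its end.

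A TAL1 peak lay in the span of 64 of the 140 groups (45.7%, interval 37.3 to 54.3%), against 15.2% of all joined groups, most of which are single peaks. A larger group has more peaks and a longer span in which TAL1 can fall, and this was not adjusted for. Counted per peak, the share was 10.1% in the groups and 12.2% in groups of 1 to 4. By group size the share of groups with TAL1 was 24.2% for pairs, 34.2% for groups of 3, 45.8% for groups of 4, 43.8% for groups of 5, 48.6% for groups of 6, 41.7% for groups of 7 and 53.8% for groups of 8 or more (45.5% without the block). From 4 peaks on, the intervals overlapped one another. Of the 140 groups, 43 held 1 TAL1 peak, 16 held 2 and 5 held 3 or more. Outside the block 62 of 137 held TAL1 (45.3%). In the 64 groups with TAL1, it lay in a single UTX peak in 44, in 2 UTX peaks in 14, in 3 or more in 4, and in 2 groups only between UTX peaks. 

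Counted over peaks, 87 of the 859 grouped UTX peaks overlapped a TAL1 peak (10.1%, interval 8.19 to 12.3%). The value over all UTX peaks was 12.1%, and over peaks in groups of 1 to 4 it was 12.2%. Outside the block it was 79 of 789 (10.0%). By group size the share was 11.6% for single peaks, 13.0% in pairs, 13.1% in groups of 3 and 14.1% in groups of 4. Inside the rule it was 11.3% in groups of 5, 10.5% in groups of 6, 5.95% in groups of 7 and 9.09% in groups of 8 or more. The intervals of all these sizes overlapped one another. The outermost peaks of the groups overlapped TAL1 in 26 of 280 (9.29%) and the inner peaks in 61 of 579 (10.5%), with overlapping intervals. The widest peak of each group did so in 29 of 140 (20.7%, interval 14.3 to 28.4%), against 58 of the 719 other peaks (8.07%, interval 6.18 to 10.3%). Width moved with this difference, at medians of 811 and 365 bases, and its part in it was not tested.

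Since grouped peaks were wider, and wider UTX peaks overlapped TAL1 more often both inside and outside the groups, the shares were also compared within the width quartiles of the UTX list. Grouped peaks had the lower share in each quartile. For peaks of 134 to 230 bases, 4 of 134 grouped peaks overlapped TAL1 (2.99%), against 5.70% of peaks in groups of 1 to 4. For 231 to 320 bases the values were 7.32% (12 of 164) and 9.56%. For 321 to 457 bases they were 8.42% (16 of 190, interval 4.89 to 13.3%) and 13.96% (interval 12.9 to 15.1%). For peaks of 458 bases or more they were 14.8% (55 of 371, interval 11.4 to 18.9%) and 19.995% (interval 18.8 to 21.3%). In all 4 quartiles the intervals overlapped at least slightly. Without the block the 4 grouped values were 3.05, 7.55, 8.89 and 14.7%. The difference was smaller when closely called neighbours were joined. With peaks at most 500 bases apart counted as 1, 63 of 503 grouped sites overlapped TAL1 (12.5%) and 2019 of 16062 others did (12.6%), and the intervals overlapped. Within the same width limits the grouped sites then had 3.61, 9, 11.97 and 18.2%, against 5.82, 9.87, 14.3 and 19.8%.

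**Figure D4:**
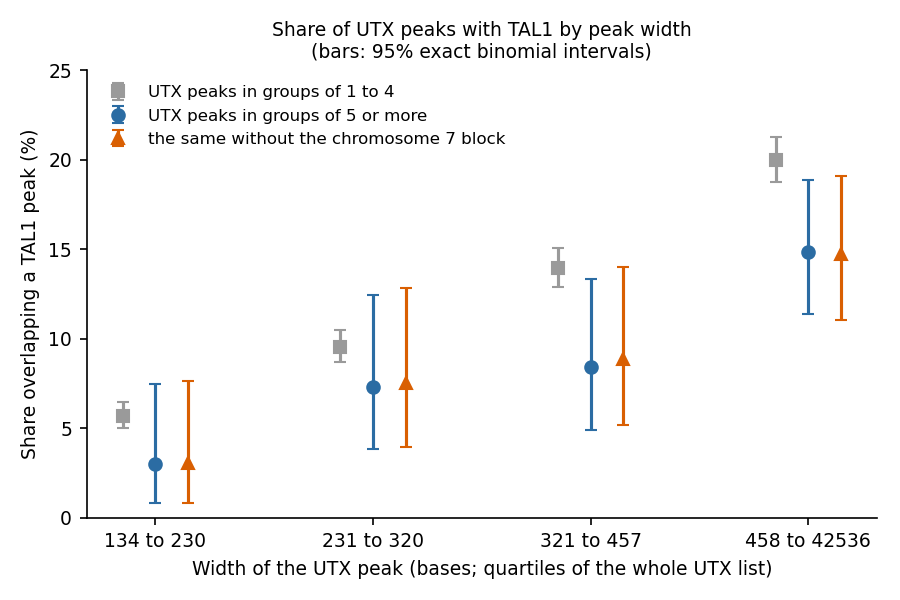
Share of UTX peaks that overlap a TAL1 peak, in percent, by width of the UTX peak in bases (quartiles of the whole UTX list), for peaks in groups of 1 to 4, in groups of 5 or more, and in groups of 5 or more without the chromosome 7 block; bars are 95% exact binomial intervals. The grouped peaks lie below the others in each quartile, for example 8.42% against 13.96% in the third.

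Seen from the TAL1 list, 101 of 2678 TAL1 peaks (3.77%) lay within the groups, at 34.7 per Mb spanned, or 32.6 per Mb without the block. The density was higher in groups of 2 to 4 UTX peaks, at 57.0 per Mb spanned. These shorter spans also held more UTX peaks for their length, 6249 in 15138 kb against 859 in 2909 kb. This was not adjusted for, so the 2 densities do not compare TAL1 alone. Of the 101, 98 overlapped a UTX peak (97.0%, interval 91.6 to 99.4%), where the whole TAL1 list had 80.8%. Groups of 2 to 4 UTX peaks gave 846 of 863 (98.0%), with an interval (96.9 to 98.8%) inside that of the dense groups. Both kinds of span begin and end in a UTX peak by construction. The 3 TAL1 peaks between UTX peaks measured 112, 165 and 161 bases. The first (chromosome 22, 18269385 to 18269496) was near BID, which encodes a pro-apoptotic member of the BCL2 family. The others were on chromosome 7 (44120873 to 44121037) and on chromosome 8 (66866807 to 66866967). Per 100 kb under UTX peaks, TAL1 peaks numbered 16.1 in the groups, 19.5 without the block, 8.18 in the block and 33.5 in groups of 1 to 4. The TAL1 peaks themselves had medians of 168 bases in the groups and 147.5 over all 2678.

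Outside the block, 4 groups held 3 or more TAL1 peaks, all built of UTX peaks of 240 to 828 bases. The group of 5 UTX peaks at 66858308 to 66872358 on chromosome 8 held 4 TAL1 peaks. Its UTX peaks measured 479, 332, 695, 417 and 331 bases. TAL1 lay in those of 479, 332 and 417 bases and once between peaks, so that the widest UTX peak had none. The group of 5 at 24223099 to 24240092 on chromosome 1, at CNR2, which encodes the cannabinoid receptor of immune cells, held 3 TAL1 peaks of 161, 172 and 184 bases. They lay in UTX peaks of 285, 513 and 345 bases, at both ends of the group. The group of 6 at 89156727 to 89182433 on chromosome 16, at ACSF3, which encodes a mitochondrial acyl-CoA synthetase, held 3 TAL1 peaks in UTX peaks of 270, 793 and 805 bases. The group of 6 at 4862279 to 4887896 on chromosome 3 lay in ITPR1, which encodes a calcium channel of the endoplasmic reticulum. Its 3 TAL1 peaks lay in 2 UTX peaks, 1 in that of 530 bases and 2 in one of 364 bases. These 4 groups were 8.68 to 16.04% covered.

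For the 76 groups without TAL1, the nearest TAL1 peak lay a median of 189.5 kb away (quartiles 59.4 and 664 kb, range 11.1 to 2627 kb). It was within 50 kb for 14 of them and more than 500 kb away for 27. These groups were somewhat shorter than those with TAL1, with a median of 16.3 kb against 18.96 kb, and had a covered share of 16.5% against 13.6%, but the quartiles overlapped: 12.7 to 22.01 kb against 15.1 to 27.1 kb, and 10.5 to 24.8% against 10.2 to 21.02%. The widest peak had a median of 832.5 bases in groups without TAL1 and 807 bases in groups with it.

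Of the groups without TAL1, the 5 with most peaks included those at the chromosome 6 histone genes and at JUNB, and the PMEPA1 group, described above. One more, 8 peaks at 46331615 to 46359990 on chromosome 21, lay at ITGB2, which encodes the beta chain of leukocyte integrins. Its peaks measured 240 to 511 bases, and the nearest TAL1 peak was 56.6 kb away. The last, 8 peaks at 39881529 to 39903487 on chromosome 19, spanned MED29, which encodes a Mediator subunit, and ZFP36, which encodes a protein that destabilises cytokine mRNAs. Its peaks measured 229 to 813 bases, with the nearest TAL1 peak 138 kb away. A group of 8 at WWOX, which encodes an oxidoreductase, tied with these in size and also held none (79111751 to 79127933 on chromosome 16, 17.6% covered).

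Further groups without TAL1 lay at genes of several kinds, chosen here after their positions were seen and given as examples only. At genes that respond early to signals they were IER2 (13262423 to 13278763 on chromosome 19, 6 peaks, 27.4% covered, widest peak 2131 bases), ATF4 (39916138 to 39929133 on chromosome 22, 5 peaks, 27.0%), and ID1 (30190813 to 30200877 on chromosome 20, 6 peaks, 25.3%). At genes that most cells transcribe strongly they were ACTB, which encodes beta-actin (5553398 to 5571682 on chromosome 7, 5 peaks, 36.2%, widest peak 3843 bases) and BRD2, which encodes a reader of acetylated histones (32936067 to 32950567 on chromosome 6, 7 peaks, 20.1%). A second group in the histone cluster lay at 26020587 to 26033885 on chromosome 6 (5 peaks, 27.9%). T cell loci were also among them. LEF1, a partner of beta-catenin in thymocytes, was one (109082193 to 109097453 on chromosome 4, 6 peaks, 22.8%). The other lay by the T cell receptor alpha constant gene TRAC and at DAD1 (23024416 to 23039489 on chromosome 14, 5 peaks, 24.8%). For the T cell receptor group the nearest TAL1 peak was 541 kb away.

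Groups with 1 or 2 TAL1 peaks, chosen in the same way, included other genes of lymphoid cells. Groups with TAL1 also lay at genes of other kinds, such as DNAJB12 and ACSF3, described above. The examples leave out many groups with and without TAL1, and the kinds of gene were not compared between them. The group at 142494052 to 142509104 on chromosome 7, by the T cell receptor beta constant gene TRBC2, held 5 UTX peaks and 2 TAL1 peaks with 24.6% covered. The group at MIR142, a microRNA gene of blood cells, at 56402472 to 56434980 on chromosome 17, held 5 UTX peaks and 2 TAL1 peaks with 49.8% covered. In ETV6, a transcription factor of the ETS family, 7 UTX peaks and 2 TAL1 peaks lay at 11918257 to 11955175 on chromosome 12 (8.01% covered). At IRF1, a transcription factor of the interferon response, 7 UTX peaks and 1 TAL1 peak lay at 131792216 to 131826618 on chromosome 5 (16.2%). At CCND3, the D-type cyclin prominent in T cell precursors, 5 UTX peaks and 1 TAL1 peak lay at 41901736 to 41909825 on chromosome 6 (33.7%). A group of 6 UTX peaks with 1 TAL1 peak lay at RHOH, which encodes an adaptor of T cell receptor signalling (40194878 to 40207440 on chromosome 4, 17.4%). Another of 6 with 1 TAL1 peak lay at the neighbouring genes STAT5A and STAT3 (40458006 to 40475043 on chromosome 17, 19.5%). At FASLG, the death ligand of activated T cells, 6 narrow UTX peaks of 170 to 413 bases covered 4.63% of 36.2 kb and held 1 TAL1 peak.

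The groups were spread unevenly over the chromosomes. Chromosome 19 held 14 groups, chromosome 2 held 13 and chromosome 17 held 12, whereas chromosome 15 held 0 groups among its 620 UTX peaks and chromosome Y 0 among 34. As a share of a chromosome's UTX peaks, grouped peaks made up 12.9% on chromosome 7 and 10.3% on chromosome 19, against 4.94% over the list. Without the block the share of chromosome 7 was 5.28%. The value of chromosome 7 thus came from the block, while that of chromosome 19 was built of 14 groups of 5 to 10 peaks. On chromosome 19, 4 of 90 grouped peaks overlapped TAL1 (4.44%, interval 1.22 to 10.99%). Elsewhere 83 of 769 did (10.8%, interval 8.69 to 13.2%). On chromosome 7 outside the block, 9 of 42 did (21.4%, interval 10.3 to 36.8%), and TAL1 was held by 9 of the 11 groups of that chromosome, block included. The 4 groups on chromosome 20, with 25 peaks, and the group of 8 on chromosome 21 held 0 TAL1 peaks. These chromosomes are examples out of 24. High shares were also found on chromosome 8 (5 of 23 grouped peaks) and chromosome 13 (4 of 21), and a low one on chromosome 9 (1 of 21). The TAL1 share of all UTX peaks of a chromosome is not given here. Whether these values belong to the groups or to the whole chromosome was not tested.

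**Figure D5:**
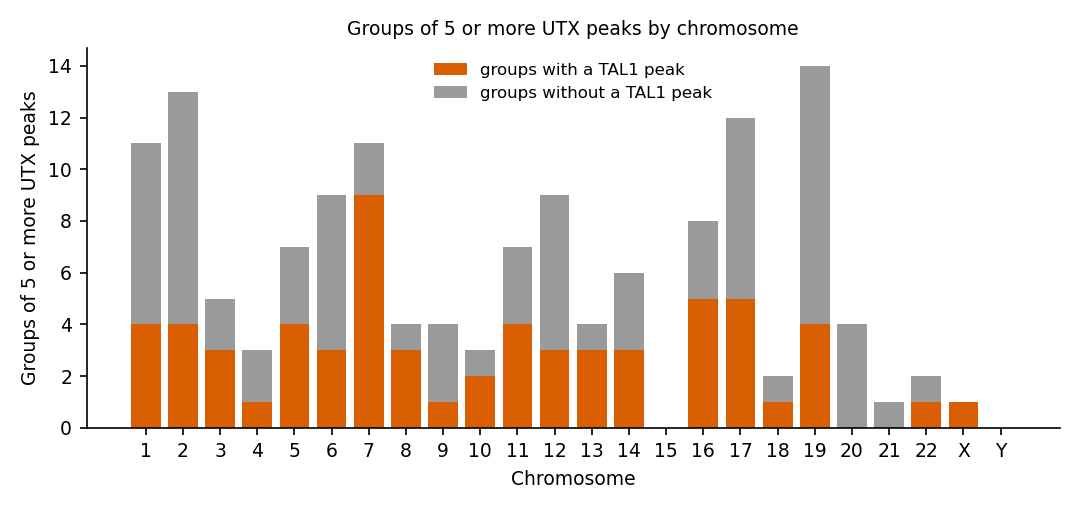
Number of groups of 5 or more UTX peaks on each chromosome, split into groups with a TAL1 peak in their span (orange) and without one (grey). Chromosome 19 has the most groups, 4 of 14 with TAL1, chromosome 7 has 9 of 11 with TAL1, and chromosomes 15 and Y have none.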

How the data were processed

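Per the submitters' processing notes, the build was hg19 and the tools included MACS2 (2.0.10), a peak caller, and BWA (0.6.2) and SAMtools (0.1.18). The sources used here do not give the peak threshold, the use of the mock library or the calling of the TAL1 list, whose positions were taken as hg19. The deposited lists hold 3 columns, chromosome, start and end, with no score, so depth is unknown. Groups were formed in Python 3.11.15 (numpy 2.4.6, scipy 1.17.1, pandas 2.3.3) and their number was the same with bedtools 2.31.1. The joining step was also checked on simulated data. A UTX peak was counted with TAL1 at an overlap of at least 1 base.

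The groups, named positions and comparisons were chosen with earlier results of these data known. Named groups were those with 10 or more peaks, the 5 longest, the 5 with the largest covered share, those with 3 or more TAL1 peaks, the 5 with most peaks but no TAL1, and those of the chromosome 7 block; other groups are marked where chosen afterwards. No gene or region sequence was printed, since a genome of the files' build was not used. Alternatives changed the joining distance, the smallest group, the overlap rule and the lists. A result at 1 position is not reported here.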

Additional observations from a re-analysis of the deposited data

How the results depend on the processing

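No paired analysis was possible because UTX and mock were sequenced in 1 library each, and no replicate could be left out. Of 67 alternative values, 38 stayed within the 95% interval of the main share or median, or within a factor of 1.5 of the main count. The interval of a median is narrower than the spread of the groups, for length 16.3 to 18.8 kb. The grouped peaks (859 in 140 groups) became 309 in 47 with joining across 5 kb, 1989 in 309 across 20 kb, 1567 in 317 with groups of 4 or more, 459 in 60 with 6 or more, 262 in 39 with the wider 50% of UTX peaks, and 503 in 84 with peaks at most 500 bases apart counted as 1. In that order the median length (17.6 kb) became 10.4, 32.4, 14.4, 22.3, 19.5 and 21.6 kb. The median covered share (15.3%) became 28.8% across 5 kb, 7.96% across 20 kb, 21.1% with the wider UTX peaks and 12.5% with joined neighbours. The median width (403 bases) became 472, 374 and 597.5 bases under the first 3 of these. The share of grouped peaks with TAL1 (10.1%) became 6.87% with the wider 50% of TAL1 peaks and 12.5% with joined neighbours. The share of groups with TAL1 (45.7%) became 36.2% across 5 kb and 35% with the wider TAL1 peaks. A shorter TAL1 list can only lower such shares. With it the share of peaks in groups of 1 to 4 fell too, in the widest quartile from 19.995 to 14.4%. Joining neighbours and leaving out chromosome 19 were chosen after seeing the data. In each of 4 width quartiles the grouped peaks had the lower TAL1 share in the 9 other settings run (grouped minus others, -8.37 to -0.868 percentage points). None of these 9 was planned beforehand. They reuse the same peak lists, so their agreement is not separate support. In the widest quartile the difference was -5.17 points in the main setting, -1.23 with groups of 4 or more and -1.37 across 20 kb. Depth is unknown, so a TAL1 peak that is not listed is not shown to be absent.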
